A study of Mus musculus with 6 samples.

Results

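Respiratory complex I was followed in mouse pancreatic islets through the genes whose symbol in the authors' deposited table began with Nduf or mt-Nd, taken once for each gene ID. The rule gave 49 of the 19940 genes of the table, 43 from the nuclear genome and 6 from the mitochondrial genome. Symbols in this rule are names, not functions. Of the 43 nuclear members, 36 encode structural subunits (7 core and 29 accessory) and 4 encode assembly factors. Ndufa4, once counted in complex I and now placed in complex IV, and its relative Ndufa4l2 also carry the prefix. The remaining member is a second gene ID under the symbol Ndufb8, which GENCODE M21 lists as Gm20538 and which had group means of 2 and 1 reads. The core subunit gene mt-Nd4l and the accessory subunit gene Ndufb1 were not found among the genes of the table and were not analysed here.

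RNA was sequenced from hand-picked islets of C57BL6/J mice, in 3 samples from pregnant animals at gestational day 14.5 and 3 samples from nonpregnant littermates. No genetic change or drug was named for either group, and the sources used here give no ages. The series' design text counts 5 animals in each group, and whether a sample came from 1 animal or several is not stated. The table gave 1 mean read count per gene and group, a fold change with its log2, and a p-value with its adjusted form, so no spread between samples could be computed here.

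Complex I oxidises NADH in the mitochondrial matrix, passes the electrons to ubiquinone and pumps protons across the inner membrane. Its catalytic core is built from subunits of both genomes: the nuclear core subunits form the arm that carries flavin and iron-sulfur clusters, and the mitochondrially encoded ones form the proton-pumping membrane arm. A shell of nuclear accessory subunits surrounds this core, and dedicated assembly factors join the parts. In beta cells, the insulin-producing cells that dominate the islet, respiration links glucose metabolism to the ATP signal that triggers insulin release.

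The mitochondrial members lie packed on a small circular genome, and 2 of their junctions are shown because they bear on how reads are assigned. The sequences are from GENCODE M21 on GRCm38, each 5′ to 3′ on the strand of its gene, and the capitals mark the bases shared with the neighbouring gene.
mt-Nd4l, last 30 bases, chrM:10144-10173, plus strand: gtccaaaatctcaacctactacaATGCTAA
mt-Nd4, first 30 bases, chrM:10167-10196, plus strand: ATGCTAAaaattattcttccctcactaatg
mt-Nd5, last 30 bases, chrM:13536-13565, plus strand: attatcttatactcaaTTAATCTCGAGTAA
mt-Nd6, last 30 bases, chrM:13552-13581, minus strand: tttattattatcgagaTTACTCGAGATTAA
The start of mt-Nd4 overlaps the end of mt-Nd4l by 7 bases on the same strand, in another reading frame of a shared transcript. The ends of mt-Nd5 and mt-Nd6 overlap by 14 bases on opposite strands. mt-Nd6 is the member read from the opposite strand of the circle to the rest, and the sources used here do not say whether counting used strand.

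For the nuclear members, the 250 bases before the transcription start were taken from RefSeq on GRCm38.p6, which matched 37 of the 42 members that carry a single annotated name. GENCODE M21 places some of these starts further upstream. Many of the stretches therefore hold annotated exons of the member itself, and some hold exons of a neighbouring gene. Promoters of respiratory genes are known for sites of NRF1, a transcription factor of nuclear genes for mitochondrial proteins. Its motif GCGCATGC, searched on both strands, was found for 4 of the 37 members (10.8%). The share was 4.56% of the 10675 genes with at least 10 mean reads and 2.56% of all 27025 genes. A gene with more than 1 stretch was counted if any of them held the motif. The 30 bases around it are shown for these 4 members, 5′ to 3′ on the strand of the gene, with the motif in capitals.
Ndufa8, chr2:36049328-36049357, minus strand: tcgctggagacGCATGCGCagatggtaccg
Ndufa6, chr15:82354356-82354385, minus strand: tccgcggtagaGCATGCGCattgcagagcc
Ndufa11, chr17:56717692-56717721, plus strand: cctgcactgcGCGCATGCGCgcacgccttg
Ndufaf4, chr4:24897960-24897989, plus strand: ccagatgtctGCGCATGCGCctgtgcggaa
In Ndufa11 and Ndufaf4 the motif and its reverse complement overlap in a run of 10 bases. The bases shown for Ndufa8 lie inside the gene as GENCODE M21 places it, and those of Ndufa6, Ndufa11 and Ndufaf4 lie before theirs. None of these 4 members passed the test for a difference between the groups. The CCAAT box, searched as CCAAT on both strands, was found for 13 of the 37 members (35.1%) and for 40.2% of the genes with at least 10 mean reads. Ndufs8, the core subunit that was higher in pregnancy, is shown whole as an example; its stretch holds the box 3 times, in capitals. Repeats of the box were not particular to higher members: Ndufb11, which did not pass, holds it 4 times.
Ndufs8, chr19:3912775-3913024, minus strand: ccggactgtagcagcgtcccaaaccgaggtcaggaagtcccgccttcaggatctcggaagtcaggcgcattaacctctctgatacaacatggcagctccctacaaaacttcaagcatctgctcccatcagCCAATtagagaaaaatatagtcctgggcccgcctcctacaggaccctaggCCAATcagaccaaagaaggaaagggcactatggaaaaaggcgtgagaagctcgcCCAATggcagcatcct
Among the 12 higher members with a stretch, 5 held a CCAAT box, 3 the sequence TATAAA, 1 the ETS family motif CCGGAAG and 0 the NRF1 motif, again on both strands. Of the 25 that did not pass, 8 held a CCAAT box, 1 TATAAA, 3 the ETS motif and 4 the NRF1 motif. TATAAA, the sequence of the TATA box, was counted anywhere in the 250 bases. Its distance to the start was not used, so these are not counts of working TATA boxes. TATAAA and the ETS motif were found for 8.40% and 13.7% of the genes with at least 10 mean reads. YY1 (AAGATGGC) and ERR (TCAAGGTCA) motifs were found for 0 of the 37 members, and for 2.10% and 0.337% of the genes with at least 10 mean reads.

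The medians of nuclear and mitochondrial members of complex I lay on opposite sides of 0 in pregnancy. By the authors' deposited adjusted p under 0.05, 13 members were higher and all 13 were nuclear (30.2% of the 43), where 7.57% of all genes of the table were higher. Among genes with at least 1000 mean reads, the share higher was 33.9% with up to 1 kb of exon and 24.3% from 1 to 2 kb. It was 12.4% from 2 to 4 kb and 6.47% over 4 kb, and most nuclear members are short. On the lower side stood 1 member, mt-Nd2, where 4.15% of all genes were lower. The median log2 ratio of pregnant over nonpregnant was 0.21 over the nuclear members, with 38 above 0 and 5 below, and -0.22 over the 6 mitochondrial members, with all 6 below 0. Over all 15682 genes that reached 10 mean reads the median was -0.01, with 47.8% above 0. The nuclear and mitochondrial medians were 0.42 apart on the log2 scale, a 1.34-fold ratio of ratios that no single scaling of the groups can move. Of the nuclear members, 41 lay above the highest mitochondrial ratio, that of mt-Nd3 at -0.16 in the authors' deposited table, and the other 2, Ndufaf4 among them, lay below it.

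**Figure D1:**
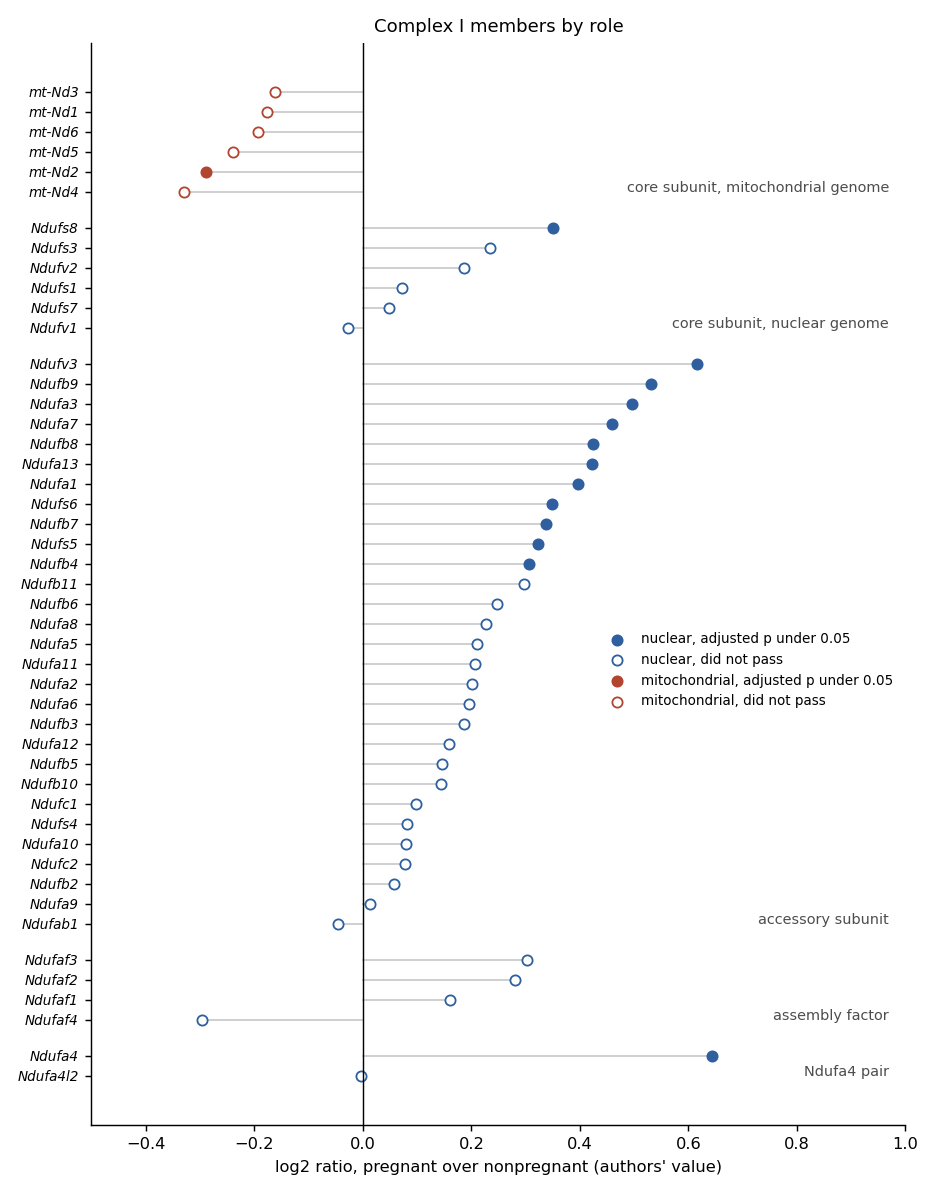
The log2 ratio of pregnant over nonpregnant from the authors' deposited table (horizontal axis) is plotted for the members grouped by role, leaving out the second Ndufb8 ID and 1 core subunit; filled points have a deposited adjusted p under 0.05. All 6 mitochondrial members lie left of 0, and 28 of the 29 accessory subunits lie right of it.

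Summed over each genome, the reads were split in the same way, but the sum of the nuclear core subunits alone was lower in pregnant islets. Such a sum follows the members with the most reads, and 5 of the 7 log2 ratios of these subunits were above 0. Nuclear members had 162492 mean reads in the pregnant and 145772 in the nonpregnant group, or 0.185% and 0.173% of all mean reads. Mitochondrial members had 867809 and 1061429, or 0.990% and 1.26%. For each read of a nuclear member there were thus 5.34 reads of a mitochondrial one in pregnant and 7.28 in nonpregnant islets. Per kb of annotated exon, the median nuclear member had a level of 1878 mean reads in the pregnant and 1509 in the nonpregnant group, and the median mitochondrial member 142133 and 168277. The level per kb of every mitochondrial member was above that of every nuclear member in both groups. Bulk RNA cannot tell fewer cells of a type from less RNA per cell.

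**Figure D2:**
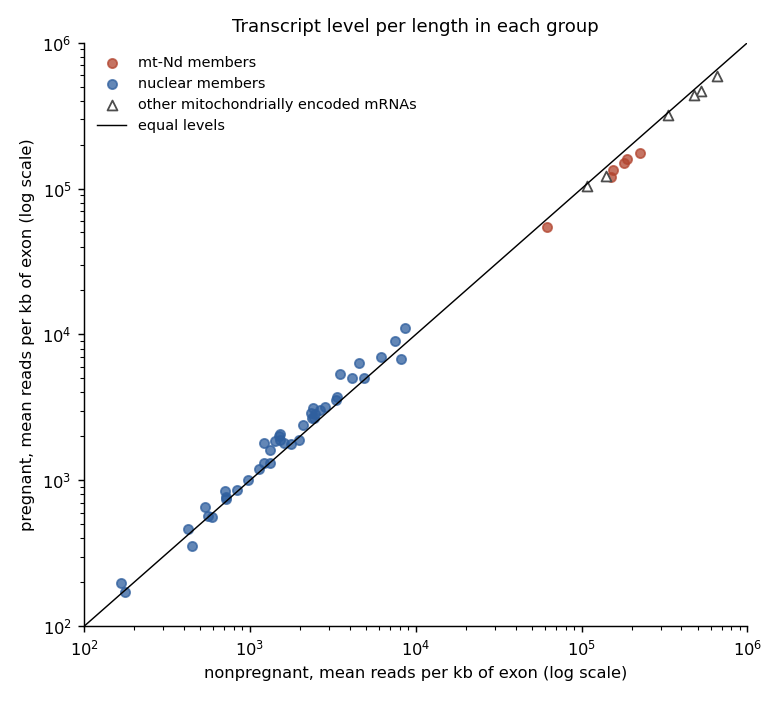
Mean reads per kb of exon are plotted for the nonpregnant (horizontal) and pregnant (vertical) group, both on log axes, for nuclear members, mitochondrial members and the other mitochondrially encoded mRNAs, with a line of equal levels. The mitochondrial members form a separate cloud at high levels, just under the line, and most nuclear members lie above it; the second Ndufb8 ID is off the scale.

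All 6 measured mitochondrial members encode core subunits of the proton-pumping membrane arm, and each had fewer mean reads in pregnant islets. mt-Nd2, which encodes a pump-like subunit next to the quinone arm, had 123900 mean reads in the pregnant and 155013 in the nonpregnant group. In the authors' deposited table this was a fold of 0.82 (log2 ratio -0.29, p = 0.00413, adjusted p = 0.0379), the one mitochondrial difference that passed. mt-Nd4 and mt-Nd5 encode the largest pump modules, at the far end of the arm. mt-Nd4 had 240073 and 308540 mean reads, a fold of 0.80 in the authors' deposited table, lower than that of mt-Nd2, with a higher adjusted p of 0.26. mt-Nd5 had 273098 and 330116 mean reads, a fold of 0.85 in the authors' deposited table (p = 0.0175, adjusted p = 0.109).

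The other mitochondrial members sat closer to 0. mt-Nd1, whose product helps to form the ubiquinone pocket, had 128755 and 148880 mean reads and a fold of 0.89 (adjusted p = 0.31) in the authors' deposited table. mt-Nd6, the member on the opposite strand, had 83090 and 97277 mean reads, with a fold of 0.87 (adjusted p = 0.243) in the authors' deposited table. mt-Nd3, the shortest, had 18893 and 21603 mean reads, with a fold of 0.89 (adjusted p = 0.721) in the authors' deposited table. The 6 log2 ratios spanned -0.33 to -0.16, and the reads behind them were deep enough that counting error alone would be at most 0.0083 on that scale, if the means are unscaled counts over 3 samples. The spread between animals is not in the table.

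Per kb, mt-Nd4 had the highest level of the 6 in both groups, 174218 mean reads per kb in pregnant and 223904 in nonpregnant islets. mt-Nd6 followed at 160096 and 187432, then mt-Nd5 at 149725 and 180985, mt-Nd1 at 134540 and 155569, and mt-Nd2 at 119364 and 149338. mt-Nd3 stood apart at 54290 and 62078. The order of the 6 was the same in both groups. The level and ratio of mt-Nd6 are uncertain if strand was not used, because reads from the opposite strand would count toward it. The levels of mt-Nd3 and mt-Nd4 are also uncertain, because near-identical nuclear copies lie on chromosome 1. The copy of mt-Nd3 (Gm28438) matches 345 of its bases at 99.7% identity and that of mt-Nd4 (Gm28439) 876 bases at 100%, and the sources used here do not say how reads that fit both places were counted.

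The other mRNAs of the mitochondrial genome, which encode subunits of complexes III, IV and V, were nearer to 0 than most complex I members. Their median log2 ratio was -0.10 over 6 genes, from -0.16 (mt-Atp6) to -0.02 (mt-Atp8) in the authors' deposited table, and 0 of the 6 passed. The mitochondrial members of complex I had a median 0.12 lower on the log2 scale. Their share of the reads of all 12 measured mitochondrial mRNAs was 29.8% in pregnant and 32.2% in nonpregnant islets, while the 12 together took 3.32% and 3.90% of all mean reads. Cytochrome b (mt-Cytb), on the same strand as mt-Nd5 and mt-Nd4, had 365532 and 378984 mean reads and a fold of 0.99 in the authors' deposited table. The difference between the 2 sets of mitochondrial mRNAs could not be tested on group means.

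**Figure D3:**
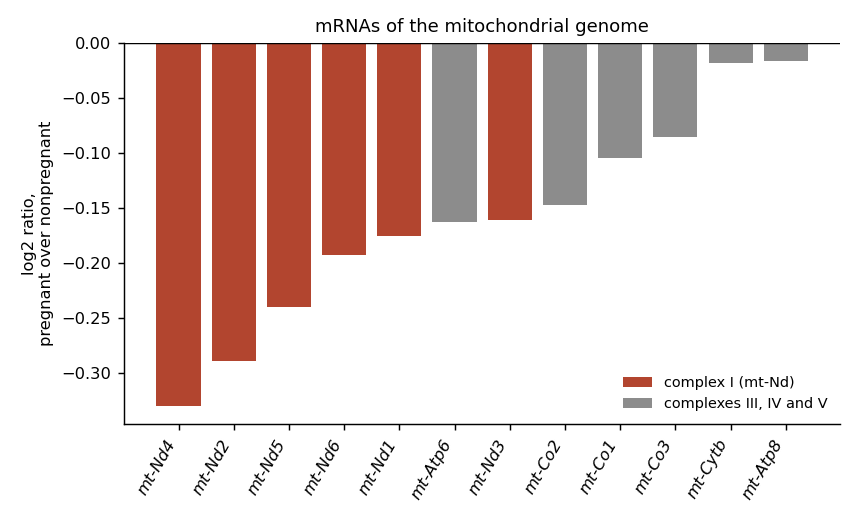
Bars give the log2 ratio of pregnant over nonpregnant from the authors' deposited table for the 12 measured mRNAs of the mitochondrial genome, ordered by value and coloured by complex I against complexes III, IV and V. The 5 lowest bars all belong to complex I, and all 12 lie below 0.

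The nuclear core subunits, which carry the electrons, were the nuclear group nearest to 0. Of the 7, 1 passed, and their median log2 ratio was 0.07. Ndufs8, which holds iron-sulfur clusters on the path to ubiquinone, had 2424 mean reads in pregnant and 1948 in nonpregnant islets, a fold of 1.28 in the authors' deposited table (p = 0.00198, adjusted p = 0.0215). Ndufs3, in the same ubiquinone-reducing module, had 5243 and 4571 mean reads and a fold of 1.18 (adjusted p = 0.154) in the authors' deposited table. Ndufv2, an iron-sulfur subunit of the NADH-oxidising module, had 5759 and 5191 mean reads and a fold of 1.14 (adjusted p = 0.304) in the authors' deposited table.

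Ndufs1, the large iron-sulfur subunit, and Ndufs7, which holds the last cluster before ubiquinone, had folds of 1.05 and 1.03 in the authors' deposited table. Mean reads were 8109 and 7902 for Ndufs1, and 3046 and 3018 for Ndufs7, in pregnant and nonpregnant islets. Ndufv1, the flavin-bearing subunit where NADH is oxidised, had 5000 and 5221 mean reads and a fold of 0.98 (adjusted p = 0.98) in the authors' deposited table. Of the 7 log2 ratios, 5 were above 0. With both groups brought to equal totals their median log2 ratio was -0.02.

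Most of the higher members were accessory subunits. Of the 29, 11 were higher (37.9%), 0 were lower, and 28 log2 ratios lay above 0, with a median of 0.21. Their summed mean reads were 105551 in pregnant and 89923 in nonpregnant islets. The largest difference was that of Ndufv3, a small subunit at the NADH-oxidising tip, with 5786 and 3872 mean reads. The authors' deposited table gives it a fold of 1.53 (p = 8.34e-09, adjusted p = 4.15e-07). Ndufb9, of the distal membrane arm, had 6592 and 4677 mean reads and rose, with a fold of 1.45 (adjusted p = 1.86e-05) in the authors' deposited table. Ndufa3, a small membrane-arm subunit, had 2120 and 1540 mean reads and rose, with a fold of 1.41 (adjusted p = 0.000468) in the authors' deposited table. These 3 were the accessory subunits with the largest ratios, and each also passed an adjusted p under 0.01.

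The other 8 higher accessory subunits rose, with folds between 1.24 and 1.38 in the authors' deposited table. Ndufa7, of the ubiquinone-reducing module, had 3680 and 2745 mean reads in pregnant and nonpregnant islets (adjusted p = 0.000665 in the authors' deposited table). Ndufb8, of the distal membrane arm, had 5819 and 4446 (adjusted p = 0.00511 in the authors' deposited table). Ndufa1, a short membrane subunit encoded on the X chromosome, had 4652 and 3626 (adjusted p = 0.00403 in the authors' deposited table). Ndufa13, also known as GRIM-19, had 3888 and 2978 mean reads, with a fold of 1.34 and an adjusted p of 0.0252 in the authors' deposited table. Tssk6, on the other strand, overlaps 375 of its 1251 exon bases, which makes its reads uncertain if strand was not used.

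Ndufs6, a zinc-binding subunit needed late in assembly, had 2611 and 2102 mean reads and a fold of 1.27 (adjusted p = 0.0215) in the authors' deposited table. Ndufb7 and Ndufs5 belong to the subunits with disulfide-bonded cysteine motifs on the outer face of the membrane arm. Mean reads were 2967 and 2410 for Ndufb7, with a fold of 1.26 (adjusted p = 0.0306), per the authors' deposited table. For Ndufs5 they were 4341 and 3560, with a fold of 1.25 (adjusted p = 0.0285), per the authors' deposited table. Ndufb4, of the distal membrane arm, had 3066 and 2541 mean reads and lay just inside the threshold, at an adjusted p of 0.0487 in the authors' deposited table. Ndufb4 and Ndufs5 have near-identical processed copies elsewhere in the genome (Ndufb4c at 100% over 390 bases, BC002163 at 99.4% over 319), and 6 nuclear members in all match a gene elsewhere at 98% identity or more over at least 100 bases.

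The 18 accessory subunits that did not pass had folds from 0.97 to 1.23 in the authors' deposited table. Ndufb11, an X-linked subunit of the membrane arm, was the nearest, with 8141 and 6798 mean reads and an adjusted p of 0.114 in the authors' deposited table. At the low end were Ndufb2 and Ndufa9 with folds of 1.04 and 1.01, and Ndufab1, the mitochondrial acyl carrier protein, with 0.97, in the authors' deposited table. Ndufab1 had 3861 and 4085 mean reads and was the accessory subunit with a log2 ratio below 0.

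By structural module, the nuclear members had medians from 0.17 to 0.25. In the NADH-oxidising module 2 of 8 were higher with a median log2 ratio of 0.17, and in the ubiquinone-reducing module 2 of 8 with 0.20. In the proximal membrane arm 4 of 9 were higher with a median of 0.23, and in the distal membrane arm 4 of 11 with 0.25. The mitochondrial members sit in these same 2 membrane arms, so each arm joined nuclear members with ratios mostly above 0 to mitochondrial members with ratios below 0.

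The 4 assembly factors among the members did not pass in either direction. Ndufaf3 and Ndufaf4, which work together on the ubiquinone-reducing module, lay at opposite ends. Ndufaf3 had 1538 and 1279 mean reads in pregnant and nonpregnant islets and a fold of 1.23 (adjusted p = 0.113) in the authors' deposited table. Ndufaf4 had 1381 and 1735 mean reads and a fold of 0.81 (p = 0.0349, adjusted p = 0.179) in the authors' deposited table, and had the lowest log2 ratio of the 43 nuclear members. Ndufaf2, which helps late assembly and is related to the subunit Ndufa12, had 585 and 493 mean reads and a fold of 1.22 in the authors' deposited table. The noncoding gene B230220B15Rik, on the other strand, overlaps 1955 of the 2978 exon bases of Ndufaf2, which makes its reads uncertain if strand was not used. Ndufaf1, of the assembly complex for the membrane arm, had 691 and 634 mean reads and a fold of 1.12 in the authors' deposited table. Of the factors Ndufaf5 to Ndufaf8, listed under clone names and therefore outside the rule, 0 of 4 passed. Of 12 further assembly factors with other names, 1 was higher, Lyrm2, a small LYR-motif protein, with 1334 and 1046 mean reads and a fold of 1.31 (adjusted p = 0.0194) in the authors' deposited table. The median of these 12 was -0.02.

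Ndufa4, the complex IV subunit under a complex I symbol, had the largest rise of any named member. It had 7357 mean reads in pregnant and 4827 in nonpregnant islets, a fold of 1.56 in the authors' deposited table (p = 1.08e-09, adjusted p = 6.17e-08). Ndufa4l2, its relative known as a hypoxia-induced gene, had 187 and 192 mean reads and a fold of 1.00 in the authors' deposited table. Counting the 36 structural subunits alone, 12 were higher and the median log2 ratio was 0.20.

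Nuclear genes of the other respiratory complexes lay on the same side of 0 as those of complex I. Of 39 nuclear genes of complexes II to V, 14 were higher (35.9%), 0 were lower and all 39 log2 ratios were above 0, with a median of 0.25. Complex II, encoded wholly in the nucleus, had 0 of 4 higher and a median of 0.19. In complex III, 3 of 9 were higher with a median of 0.26, led by Uqcrq, a small subunit, with 3915 and 2695 mean reads and a fold of 1.49 in the authors' deposited table. In complex IV, 5 of 10 were higher with a median of 0.32, led by Cox7b with 5923 and 4249 mean reads and a fold of 1.43 in the authors' deposited table. In complex V, the ATP synthase, 6 of 16 were higher with a median of 0.23. Atpif1, the inhibitor that binds the synthase, had 6039 and 4580 mean reads and a fold of 1.35 in the authors' deposited table. Complexes III to V thus showed the nuclear side of the pattern, and no test compared them with complex I.

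The median log2 ratios of 3 other mitochondrial lists lay near 0 or below it, with single genes on either side. A list of 12 genes of general mitochondrial content, such as citrate synthase (Cs) and the import receptor Tomm20, had a median log2 ratio of 0.00, with 0 higher. The 1 lower gene of that list was Hspd1, the matrix chaperonin, with 16690 and 21415 mean reads and a fold of 0.80 (adjusted p = 0.0168) in the authors' deposited table. Among 18 genes for the copying, transcription and RNA handling of the mitochondrial genome, the median was -0.11 and 12 lay below 0. Polg2, the accessory subunit of the mitochondrial DNA polymerase, was the 1 that passed, with 446 and 817 mean reads and a fold of 0.56 (adjusted p = 0.0012) in the authors' deposited table. Of 8 nuclear regulators, 1 passed: Ppargc1a, which encodes the coactivator PGC-1 alpha, was lower with 97 and 190 mean reads (fold 0.53, adjusted p = 0.00134) in the authors' deposited table. Nrf1 itself had 2211 and 1823 mean reads and a fold of 1.24 that did not pass (adjusted p = 0.0517) in the authors' deposited table.

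**Figure D4:**
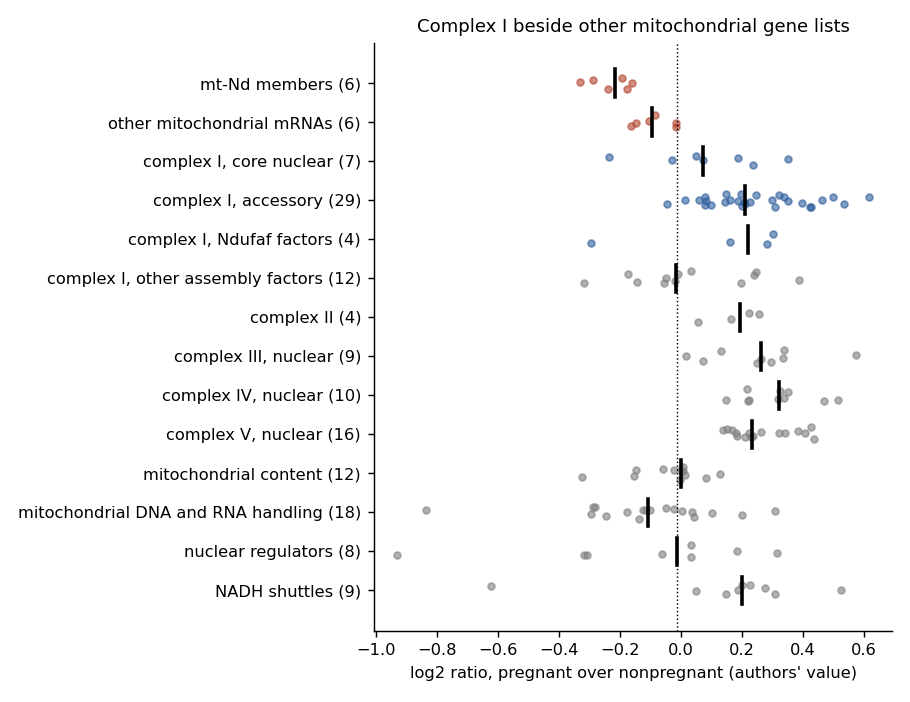
Each point is the log2 ratio of pregnant over nonpregnant of 1 gene in the authors' deposited table, each row a gene list with its number of genes, black bars are list medians and the dotted line is the median of all genes with at least 10 mean reads. The medians of the nuclear subunit lists of the respiratory complexes lie right of that line, with complex IV at 0.32. The median of the mitochondrial members of complex I lies left of it at -0.22. That of the other assembly factors of complex I, -0.0155, lies beside the line at -0.0145.

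Annotated exon length moved with the nuclear rise. It is the union of the exons of all GENCODE M21 transcripts of a gene, so it can exceed the length of any single mRNA. The median exon length was 1644 bases over the nuclear members, against 4269 over all genes with at least 10 mean reads, and was 1251 for accessory and 2178 for nuclear core subunits. Among all genes with at least 1000 mean reads, 33.9% of the 121 genes with up to 1 kb of exon were higher, with a median log2 ratio of 0.26, and 6.47% of the 5580 genes over 4 kb, with a median of -0.06. Among genes with at least 10 mean reads the class up to 1 kb had 15.2% higher and a median of 0.12, close to the 15.3% and 0.13 of the class from 1 to 2 kb, so the order of the short classes depends on the minimum of reads. The medians of the nuclear members fell with length, and the shares higher did not fall at each step. Up to 1 kb, 3 of 9 were higher with a median of 0.25, and from 1 to 2 kb 7 of 17 with 0.21, where all genes of that class with at least 1000 mean reads had 24.3% and 0.17. From 2 to 4 kb, 2 of 11 were higher with a median of 0.08, and over 4 kb 1 of 5 with 0.07, where all genes had 12.4% and 0.04, and 6.47% and -0.06. The mitochondrial members had from 348 to 1824 bases of exon and ratios below 0. The part of length in the ratios of nuclear or of mitochondrial members was not tested.

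**Figure D5:**
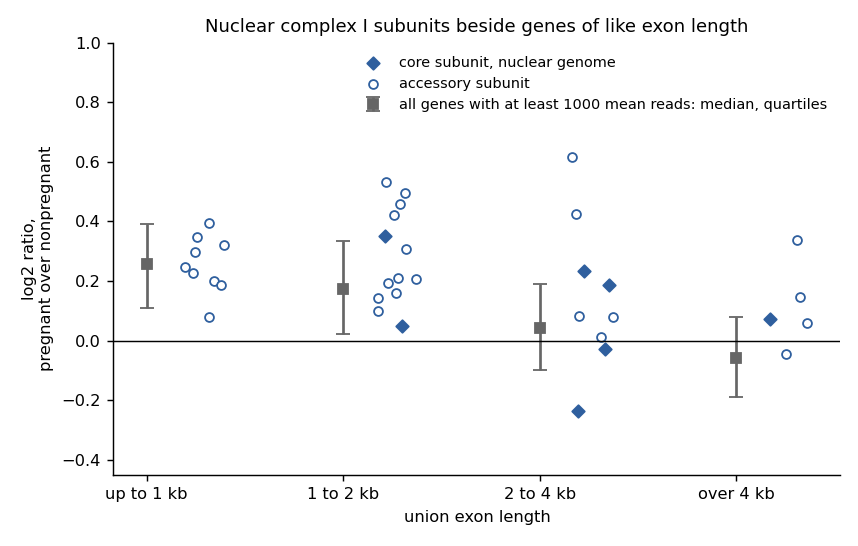
The log2 ratio of pregnant over nonpregnant from the authors' deposited table is plotted by class of union exon length for nuclear core (diamonds) and accessory (circles) subunits, beside the median and quartiles of all genes with at least 1000 mean reads (squares and bars). The median of these genes falls from 0.26 at up to 1 kb to -0.06 over 4 kb, and most accessory subunits sit in the 2 shorter classes.

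Markers of other cell types also differed between the groups. Acinar markers, of the exocrine cells around islets, took 1.31% of mean reads in pregnant and 0.101% in nonpregnant islets, with 13 of 14 higher. All but Amy2a5, listed at 0 in the nonpregnant group, had reads in both groups. Beta cell markers were well expressed and took 22.0% and 18.7%, with 2 of 8 higher, and alpha cell markers took 1.54% and 2.27%, with 1 of 5 lower. Among the delta, PP, duct, endothelial, fibroblast, macrophage and lymphocyte lists, 1 macrophage marker was higher and 1 delta cell marker lower. The part of other cells in the complex I results was not tested. With insulin and acinar marker genes left out of the totals, the shares of the nuclear members were 0.2345% and 0.2066%, and those of the mitochondrial members 1.252% and 1.504%, in the same directions. Bringing both groups to equal total mean reads shifted every log2 ratio down by 0.09. On that scale 31 nuclear members lay above 0 and 12 below with a median of 0.12, the mitochondrial median was -0.30, and the 13 higher members and mt-Nd2 kept their direction.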

How the data were processed

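Reads of 6 islet samples were aligned and counted per gene by the authors on GRCm38, with HTSeq 0.5.3p3, Bowtie, TopHat and TopHat2 2.0.12, per the submitters' processing notes. The authors deposited a mean read count per gene and group, per the file headers. Whether libraries were scaled before averaging, whether strand was used and which test was run is not stated in the sources used here. The authors also deposited a fold change (a linear ratio of pregnant over nonpregnant), its log2, a p-value and an adjusted p-value for each gene. The deposited log2 was a median of 0.04 above that recomputed from the read means (SD 0.00127 over 10102 genes above 500 mean reads in each group). Mean reads summed to 87654449 in the pregnant and 84493872 in the nonpregnant group, and library depths were not analysed here. Benjamini-Hochberg values recomputed from the deposited p-values differed by at most 0.00203 and gave the same 2337 calls.

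Genes on more than 1 line (21) were counted once. The planned test on counts per library could not be run without values per library, and the authors' adjusted p under 0.05, over all 19940 genes, was the call. Medians, counts and shares are descriptions, since genes are not replicates. Exon lengths and positions came from GENCODE M21 on GRCm38, which held 96.6% of the gene IDs and all 49 members, and promoters from RefSeq on GRCm38.p6. Near-identical copies were sought among GENCODE M21 transcripts with blastn 2.17.0 at 98% identity or more over at least 100 bases. Other steps used Python 3.11.15, pandas 2.3.3, numpy 2.4.6, scipy 1.17.1 and matplotlib 3.10.9. The reading of the table, the adjustment and the calls were tested on simulated p-values, and the medians were not. Alternatives covered scaling, the pseudocount, a filter on low values, the members counted, the summary and the threshold.

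The members and gene lists were chosen with earlier results of these data known. The genes named were the mitochondrial members, the members that passed, the 3 largest and 3 smallest ratios of each role (1 nuclear core subunit is counted but not reported by name here), the 3 members with the most and the fewest reads, and up to 4 genes per pathway list that passed with the smallest p. Ndufs1, Ndufb11, Ndufa6, Ndufa8, Ndufa11, Cs, Tomm20, Nrf1, Mdh1 and the other mitochondrial mRNAs named were added for context, after their values were seen.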

Additional observations from a re-analysis of the deposited data

How the results depend on the processing

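No paired analysis was possible because the deposited table gives group means with no value per library, and for the same reason no sample could be left out in turn. Of 45 alternative values, 38 stayed within the tolerances set (0.1 on the log2 scale, 10% of a share, 1.5 times a count) and 0 reversed. These tolerances are wide beside the values. The nuclear median of 0.21 fell to 0.12 at equal totals, and to 0.11 at equal totals without mitochondrially encoded genes, and both counted as within them. So did 17 higher members in place of 13. Some of the 45 values could not move. A scaling of the groups cancels in the difference of the medians, and the filters on reads and role kept all 6 mitochondrial members. The median of the nuclear core subunits, which changed sign at equal totals, was not among the values counted. The median log2 ratio ranged from 0.11 to 0.23 over the nuclear members and from -0.31 to -0.20 over the mitochondrial ones, and their difference from 0.42 to 0.46. At an adjusted p under 0.01 the higher members numbered 7 and the lower 0, because a stricter threshold passes fewer genes. At an unadjusted p under 0.05 there were 17 higher and 3 lower members, and 4418 genes of the table passed. Shares of all genes in each direction were not taken at these thresholds, so the member counts have no such comparison there. Without insulin and acinar marker genes in the total, the nuclear share was 0.2345% in pregnant and 0.2066% in nonpregnant islets and the mitochondrial share 1.252% and 1.504%, because the total is smaller. A share of mitochondrial members in a total without mitochondrially encoded genes was not run. Counting error on the log2 scale, if the means are unscaled counts over 3 samples, would be 0.0090 to 0.086 for nuclear members with at least 100 mean reads.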

Other observations

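Genes that deliver NADH to the respiratory chain moved in both directions. The glycerol phosphate shuttle carries electrons from cytosolic NADH to ubiquinone and so bypasses complex I. Its cytosolic enzyme gene Gpd1 had 3232 mean reads in pregnant and 2306 in nonpregnant islets, a fold of 1.44 (adjusted p = 0.000221) in the authors' deposited table. Its mitochondrial enzyme gene Gpd2 was lower, with 7783 and 12271 mean reads and a fold of 0.65 (adjusted p = 1.06e-07) in the authors' deposited table. Of the 7 genes of the malate-aspartate shuttle, which hands NADH to the matrix where complex I uses it, 0 passed and all 7 log2 ratios were above 0. Mdh1, the cytosolic malate dehydrogenase, came nearest, with 19032 and 16128 mean reads and a fold of 1.21 (adjusted p = 0.058) in the authors' deposited table.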
